A study of Mus musculus with 9 samples.

Results

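The comparison described here sets liver from mice given triiodothyronine (T3) together with a small interfering RNA (siRNA) against FoxO1 beside liver from euthyroid control mice. It uses 6 of the 9 arrays of the series, 3 per group, and all probes detected (detection p under 0.05) on at least 3 of those 6 arrays, which are 17753 of the 45281 probes on the array and stand for 10074 of 19057 genes. The labels give all mice as male C57BL/6 animals at an age of 8 weeks. The treated group received T3 for 3 days, which made the animals hyperthyroid, and the FoxO1 siRNA by hydrodynamic injection into the tail vein, in which fluid pushed quickly into the vein carries nucleic acid into hepatocytes. The arrays of mice given T3 alone were left out. T3, the siRNA and the injection thus differ together between the groups and cannot be told apart. The labels name no group that had a control injection and leave unsaid whether every array comes from its own mouse. The p-values therefore rest on the spread among these arrays, which may be technical. Whole liver RNA was hybridized to Illumina bead arrays, so fewer cells of a type and less RNA per cell cannot be told apart.

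T3 acts on the liver through nuclear thyroid hormone receptors, which sit on DNA as partners of the retinoid X receptors and switch target genes on or off when hormone binds. In rodent liver the hormone is known for raising genes of fat and cholesterol turnover and of its own deiodination. FoxO1 is a forkhead transcription factor that drives genes of glucose output and fasting, and insulin signalling removes it from the nucleus. Hydrodynamic injection is known to injure some hepatocytes for a time.

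The 6 arrays were alike in overall brightness, with median probe signals of 109 to 120 and 17232 to 18357 detected probes. Over the tested probes the log2 values of arrays of the same group correlated with r of 0.985 to 0.991, and those of different groups with r of 0.955 to 0.976. All levels below are log2 normalized intensities, and all differences are those of the siRNA group minus the euthyroid group on that scale with the standard error (SE) of the limma fit, n = 3 arrays per group. Adjusted p-values come from limma's two-sided test, adjusted by Benjamini and Hochberg's method over the 17753 tested probes, and a probe was called when its adjusted p was under 0.05. How precise a value can be is limited by the 3 arrays in each group.

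Foxo1, the gene the siRNA targets (GRCm38.p6 chromosome 3, 52268337 to 52350109), was lower in the siRNA group, but only its dimmer probe passed the test. The brighter of its 2 probes read 8.76, 8.91 and 8.77 on the euthyroid arrays and 8.48, 8.59 and 8.48 on the siRNA arrays. The groups did not overlap, but the difference of -0.30 ± 0.10 did not pass (adjusted p = 0.0711). The dimmer probe of Foxo1 read 6.81, 6.95 and 6.99 in euthyroid liver and 6.499, 6.12 and 6.01 with the siRNA. Its difference of -0.70 ± 0.15 passed (adjusted p = 0.0164), and this call was lost with median scaling (-0.48) and without euthyroid replicate 2 (-0.69), euthyroid replicate 3 (-0.67) or siRNA replicate 2 (-0.66). Foxo3, a related forkhead factor, read 6.21, 6.19 and 6.00 in euthyroid liver and 5.85, 5.85 and 5.84 with the siRNA. Its difference of -0.29 ± 0.11 did not pass (adjusted p = 0.087). Foxo4 was not detected on enough arrays to be tested.

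A large share of the tested liver transcripts differed between the groups, in both directions alike. Of the 17753 tested probes 4572 were called (25.8%), 2294 higher and 2278 lower with T3 and the siRNA. Described by the brightest probe of each gene, 2573 of 10074 genes were called (25.5%), of which 1303 were higher (12.9%) and 1270 lower (12.6%). The groups did not overlap for 4744 genes (47.1%). Of the tested genes 120 were detected only on siRNA arrays and 44 only on euthyroid arrays. These passed the filter through that group alone, so their p-values depend on the filter and give no separate support. Cxcl14, Wfdc16, Kif11 and Ankrd1 below are of the first kind, and Hectd2os and Ncoa2 are of the second. Changes of at least 1.5-fold were found for 879 genes that rose and 719 that fell, and 51 genes rose and 15 fell at least 4-fold. With median scaling in place of quantile normalization the median of all probes moved from -0.02 to 0.10, and 73.1% of the called probes were higher in place of 50.2%. Of the 960 called genes with several tested probes, 749 had no probe in the other direction, and 498 had another probe called the same way. Probes called in opposite directions were found for 27 genes. The called probes numbered 2289, 2151 and 2867 without euthyroid replicates 1, 2 and 3, and 4646, 2828 and 2701 without siRNA replicates 1, 2 and 3. Over the called genes the median distance from the euthyroid mean, taken in the direction of the call, was 0.59, 0.62 and 0.78 on siRNA replicates 1, 2 and 3.

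**Figure D1:**
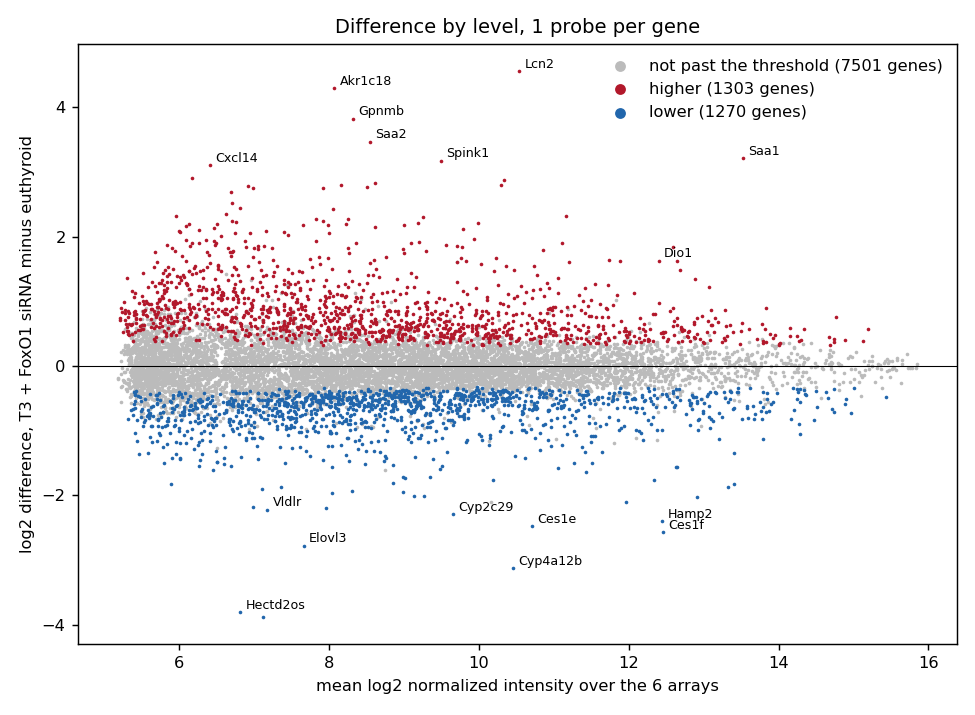
Log2 difference between the T3 plus FoxO1 siRNA group and the euthyroid group (vertical axis) against the mean log2 normalized intensity over the 6 arrays (horizontal axis), 1 point per gene. The 1303 genes called higher are red, the 1270 called lower are blue and the rest are grey, and the largest rise, of Lcn2 at 4.55, lies farther from 0 than the largest fall drawn by name, of Hectd2os at -3.80.

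Genes that thyroid hormone is known to control in rodent liver did not move together. Of 22 tested genes in this list 3 rose, 3 fell and 16 did not pass, with a median difference of -0.02, beside a median of -0.02 over all genes. That median changed sign without euthyroid replicate 3 and with array weights, the falls numbered 1 without euthyroid replicate 2 or 3, and the rises numbered 5 without siRNA replicate 1. With median scaling there were 6 rises and 3 falls. Dio1, which deiodinates thyroxine to T3, read 11.64, 11.84 and 11.28 in euthyroid liver and 13.19, 13.36 and 13.10 with T3 and the siRNA. All siRNA arrays lay above all euthyroid arrays, a 3.09-fold rise (1.63 ± 0.16, adjusted p = 0.00214), and the second probe of Dio1 rose by 2.13. Hr, a corepressor of the thyroid hormone receptor, rose from 6.24, 6.29 and 6.28 to 7.31, 7.16 and 7.76 (1.14 ± 0.16, adjusted p = 0.00521). Cdkn1a, an inhibitor of cyclin-dependent kinases, rose by 1.48 ± 0.28 (adjusted p = 0.0113).

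No lipogenic member of that list was called higher. Thrsp, a nuclear protein tied to lipogenesis, read 12.54, 12.43 and 12.91 in euthyroid liver and 12.13, 12.92 and 12.46 with the siRNA on its brighter probe, so the groups overlapped (-0.12 ± 0.22, adjusted p = 0.707). Its dimmer probe gave -2.09 ± 0.49 (adjusted p = 0.0221), so the 2 probes of Thrsp disagree. Fasn, the fatty acid synthase, fell from 7.56, 7.56 and 7.80 to 6.74, 6.83 and 6.71 (-0.88 ± 0.11, adjusted p = 0.00396). Me1, the malic enzyme that supplies NADPH, had a difference of 0.70 ± 0.22 (adjusted p = 0.0558), which passed in 10 of 19 alternatives. Klf9, a zinc finger factor, had a difference of -0.62 ± 0.22 (adjusted p = 0.0775), and Serpina7, which encodes thyroxine-binding globulin, one of -0.90 ± 0.30 (adjusted p = 0.0651). Cyp7a1, the rate-limiting enzyme of bile acid synthesis, read 12.30, 11.39 and 12.13 in euthyroid liver and 11.90, 12.84 and 13.06 with the siRNA, and its groups overlapped (0.66 ± 0.35, adjusted p = 0.193). Igf1, the growth factor made by liver under growth hormone, gave 0.05 ± 0.11 on its brighter probe (adjusted p = 0.777) and 0.53 ± 0.13 on the other (adjusted p = 0.0232).

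Of 13 genes for transport, deiodination and reception of thyroid hormone 2 rose and 3 fell (median -0.25). Of the 3 falls none was called without euthyroid replicate 1 or 3, and 1 was called without euthyroid replicate 2, siRNA replicate 2 or siRNA replicate 3. Slco1b2, a hepatic anion transporter, fell by 0.58 ± 0.13 (adjusted p = 0.0169), although its other probe gave 0.21 ± 0.16. The calls of Rxra, a retinoid X receptor that pairs with the hormone receptors (-0.41 ± 0.10, adjusted p = 0.0289), and of Crym, which binds thyroid hormone in the cytosol (0.73 ± 0.22, adjusted p = 0.0472), were lost in 8 and 10 of the alternatives. The called probe of the coactivator Ncoa2 was detected on all 3 euthyroid arrays and on none with the siRNA, and was at least 1.46-fold lower (adjusted p = 0.0433; lost in 9), while its other probe, detected on 2 arrays of each group, did not pass (-0.48 ± 0.22, adjusted p = 0.139).

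Genes that FoxO1 is known to control showed no common direction either. Of 26 tested targets 1 rose, 3 fell and 22 did not pass, with a median of 0.03, and that median changed sign without euthyroid replicate 3 or siRNA replicate 1. With median scaling 4 were called higher and 2 lower. Of the 3 falls 1 was called without euthyroid replicate 1 or 2, and none without euthyroid replicate 3, siRNA replicate 2 or siRNA replicate 3. G6pc, the glucose-6-phosphatase of glucose output, read 13.05, 13.97 and 14.28 in euthyroid liver and 12.73, 12.60 and 12.61 with the siRNA. The siRNA arrays all lay below the euthyroid arrays, which themselves spread over more than 1 log2 unit (-1.12 ± 0.29, adjusted p = 0.0306), and the call was lost in 7 of 19 alternatives. Ppargc1a, a coactivator of gluconeogenic genes, fell from 8.40, 7.90 and 8.46 to 7.83, 7.29 and 7.06 (-0.86 ± 0.23, adjusted p = 0.0339; lost in 6 alternatives). Insr, the insulin receptor, fell by 0.55 ± 0.16 (adjusted p = 0.0447; lost in 7) and Bcl6, a transcriptional repressor, rose by 0.85 ± 0.25 (adjusted p = 0.0457; lost in 8).

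Further well-known FoxO1 targets did not pass. Pck1, the phosphoenolpyruvate carboxykinase, read 8.81, 9.09 and 9.24 against 8.41, 8.71 and 8.83 (-0.40 ± 0.16, adjusted p = 0.108). Igfbp1, a binding protein of insulin-like growth factors, gave 0.04 ± 0.36 (adjusted p = 0.942) and Irs2, the insulin receptor substrate, -0.09 ± 0.41 (adjusted p = 0.89), both with overlapping groups. Pdk4, a kinase that inactivates pyruvate dehydrogenase, had a difference of 0.55 ± 0.19 (adjusted p = 0.0672). In the list of FoxO factors and insulin signalling 1 of 15 genes rose, Pik3ca (0.51 ± 0.12, adjusted p = 0.0235; lost in 4 alternatives), a catalytic subunit of phosphoinositide 3-kinase. Its regulatory subunit Pik3r1 fell by 0.56 ± 0.16 (adjusted p = 0.0421; lost in 8), and the 3 falls in that list were each lost without euthyroid replicate 1 or 3 or siRNA replicate 2 or 3, and 1 was called without euthyroid replicate 2. Of 16 genes of gluconeogenesis and glycolysis control 3 fell, of which 1 was called without euthyroid replicate 3, and 1 rose (2 with median scaling). Ppp1r3c, which targets a phosphatase to glycogen, fell from 12.11, 12.52 and 12.14 to 10.57, 10.82 and 10.88 (-1.50 ± 0.15, adjusted p = 0.00216), and Gckr, the regulator of glucokinase, fell by 0.61 ± 0.13 (adjusted p = 0.0173; lost without euthyroid replicates 1 and 3, up to 0.0594). Hk3, a hexokinase of blood cells, rose by 0.92 ± 0.16 (adjusted p = 0.00934).

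**Figure D2:**
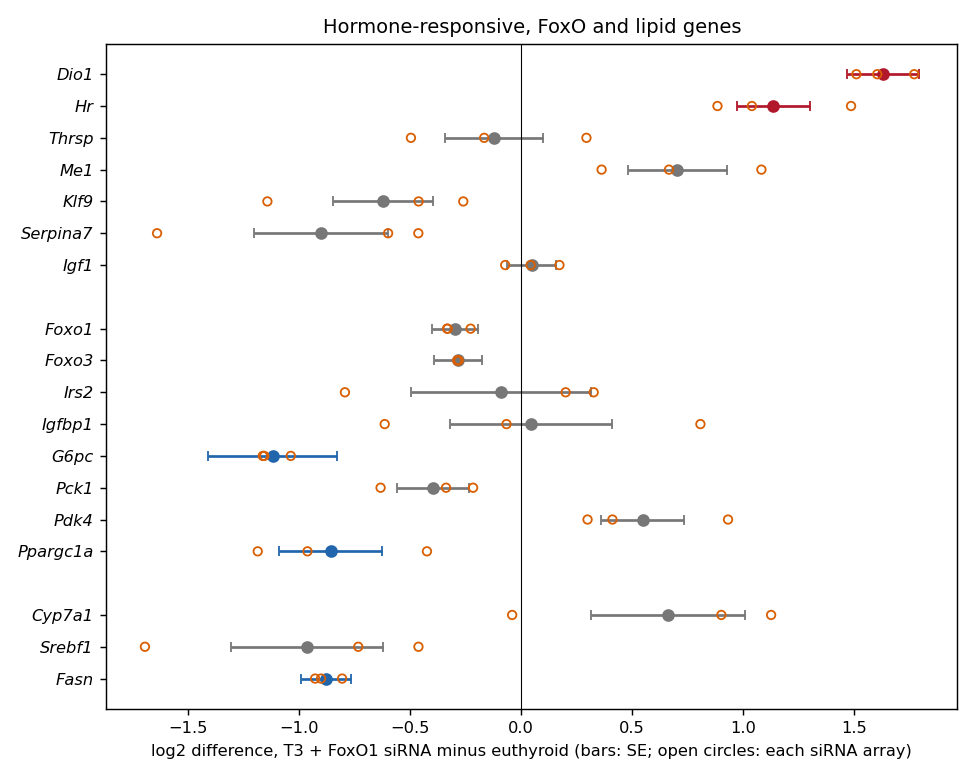
Log2 difference, T3 plus FoxO1 siRNA minus euthyroid (horizontal axis), for thyroid hormone, FoxO and lipid genes, with filled points for the fitted difference, bars for its SE and open circles for each siRNA array against the euthyroid mean. Red and blue points were called and grey ones were not. Dio1 and Hr lie to the right at 1.63 and 1.14, G6pc, Ppargc1a and Fasn to the left, and the open circles of Irs2 and Igfbp1 fall on both sides of 0.

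Among the largest rises were secreted defence proteins and enzymes of steroid and glutathione metabolism. Lcn2, lipocalin 2, an iron-scavenging acute phase protein, read 8.95, 8.39 and 7.45 in euthyroid liver and 11.87, 12.70 and 13.88 with the siRNA, a 23.5-fold rise (4.55 ± 0.54, adjusted p = 0.00338). The serum amyloids Saa1, Saa2 and Saa3, made by hepatocytes and macrophages in inflammation, rose by 3.21, 3.47 and 2.79. For all 3 of them siRNA replicate 1 was the lowest of its group: Saa1 read 14.13 on it against 15.74 and 15.50 on replicates 2 and 3, and 12.33, 11.49 and 11.92 in euthyroid liver (3.21 ± 0.42, adjusted p = 0.004). Spink1, a trypsin inhibitor, rose 9.01-fold, from 8.66, 6.84 and 8.23 to 11.996, 9.90 and 11.35 (3.17 ± 0.62, adjusted p = 0.0127). Gpnmb, known from macrophages that take up lipid, rose 14.2-fold, from 6.605, 6.47 and 6.14 to 9.35, 9.86 and 11.48 (3.82 ± 0.49, adjusted p = 0.00388).

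Akr1c18, a hydroxysteroid dehydrogenase that inactivates progesterone, read 7.03, 5.02 and 5.72 against 10.19, 10.49 and 9.95, a 19.5-fold rise (4.29 ± 0.46, adjusted p = 0.00252). Cyp17a1, the steroid hydroxylase and lyase, rose 7.13-fold (2.83 ± 0.36, adjusted p = 0.00388) and Gsta1, a glutathione transferase, 7.33-fold (2.87 ± 0.52, adjusted p = 0.0105), with 3.22 and 2.13 on the other probes of Gsta1. Both groups of each of these genes stayed apart, which the choice of the largest rises required. The chemokine Cxcl14 was not detected on any euthyroid array and read 7.82, 8.13 and 7.91 with the siRNA, which is at least 5.56-fold higher (3.10 ± 0.13, adjusted p = 0.000315). Wfdc16, a small protein with a protease inhibitor domain, was likewise undetected in euthyroid liver and at least 4.41-fold higher (2.90 ± 0.25, adjusted p = 0.00193). The probes of Cxcl14 and Wfdc16 passed the filter only through the siRNA arrays, where they are high. Crybb3, a crystallin of the lens, rose 6.93-fold, from 7.14, 6.82 and 6.34 to 9.67, 10.20 and 8.79 (2.79 ± 0.36, adjusted p = 0.00391).

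Among the largest falls were carboxylesterases, drug-metabolizing cytochromes P450 and enzymes typical of male liver. Hectd2os, a noncoding transcript (chromosome 19, 36619418 to 36689479), read 8.59, 8.54 and 9.01 in euthyroid liver and was not detected on any siRNA array, at least 9.89-fold lower (-3.80 ± 0.15, adjusted p = 0.000279). Its probe passed the filter only through the euthyroid arrays. The fatty acid hydroxylases Cyp4a12b and Cyp4a12a, typical of male liver, fell 8.73-fold and 4.29-fold. On Cyp4a12b siRNA replicate 2 was the lowest, at 7.92 against 9.64 and 9.10, with 11.93, 11.89 and 12.22 in euthyroid liver (-3.13 ± 0.39, adjusted p = 0.00378). Elovl3, an elongase of very long fatty acids, fell 6.88-fold, from 8.75, 9.47 and 8.93 to 6.23, 6.91 and 5.67 (-2.78 ± 0.32, adjusted p = 0.0031).

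The carboxylesterases Ces1f and Ces1e, which hydrolyse lipids and drugs, fell with little spread. Ces1f read 13.65, 13.77 and 13.79 against 10.98, 11.25 and 11.28 (-2.57 ± 0.12, adjusted p = 0.000315), and Ces1e 11.92, 11.94 and 11.97 against 9.64, 9.62 and 9.16 (-2.47 ± 0.15, adjusted p = 0.00104). Hamp2, a hepcidin gene, fell 5.26-fold, from 14.05, 13.32 and 13.55 to 10.998, 11.39 and 11.35 (-2.40 ± 0.21, adjusted p = 0.00193). The drug-metabolizing cytochromes P450 Cyp2c29 and Cyp1a2 fell 4.88-fold and 4.08-fold, and the second probe of Cyp1a2 gave -1.75. Vldlr, the very low density lipoprotein receptor, fell 4.67-fold (-2.22 ± 0.23, adjusted p = 0.00216), with -2.16 and -2.18 on its other probes. Scnn1a, a subunit of the epithelial sodium channel, fell 4.56-fold (-2.19 ± 0.21, adjusted p = 0.00203) and Cebpe, a factor of granulocyte maturation, 4.54-fold (-2.18 ± 0.18, adjusted p = 0.00185; -1.80 on its second probe). Several of these transcripts have near-identical copies (Saa1 and Saa2, Cyp4a12a and Cyp4a12b, Ces1e and Ces1f, Gsta1 and Gsta2, Hamp and Hamp2, the Cyp2c genes), and their probes were not checked for cross-hybridization. The offset of the background step makes folds of dim probes too small.

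**Figure D3:**
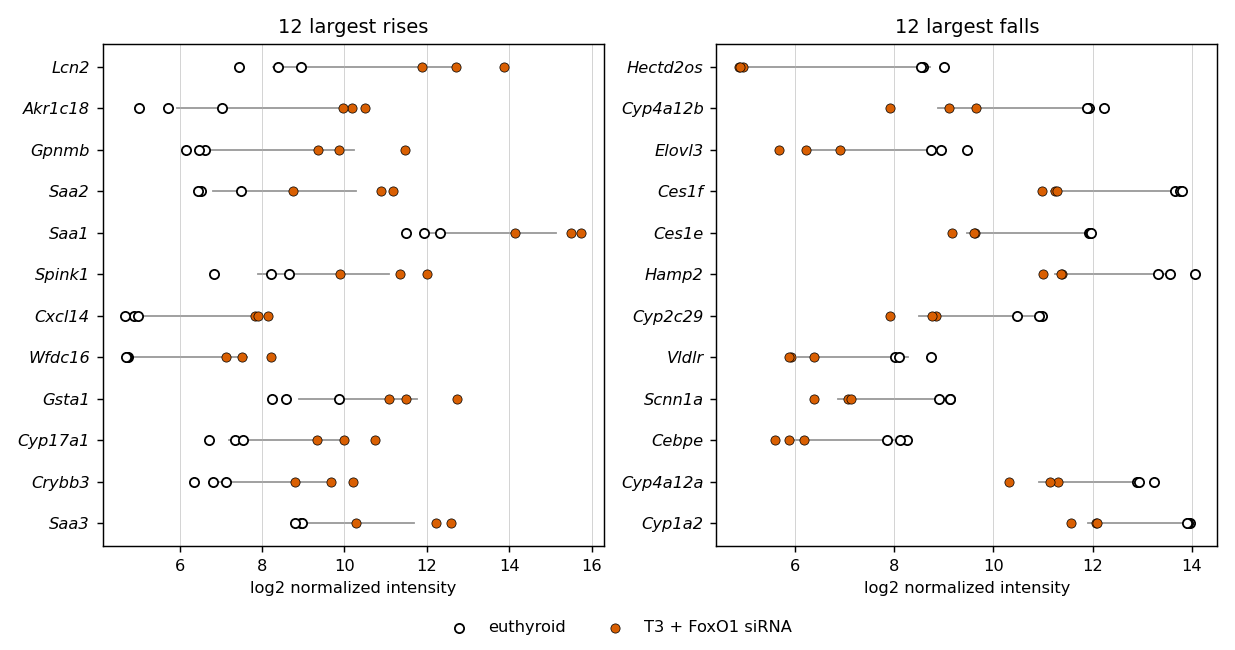
Log2 normalized intensity (horizontal axis) on each array for the 12 largest rises (left) and the 12 largest falls (right), with open circles for the 3 euthyroid arrays, filled circles for the 3 T3 plus FoxO1 siRNA arrays and lines between the group means. For every gene shown the groups do not overlap, which the choice of these genes required, and the siRNA arrays of Saa2, Lcn2 and Cyp4a12b are spread more widely than those of Cxcl14, Hectd2os and Ces1f.

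The rest of the comparison is described by lists of genes with a known role, each read against the 12.9% of all genes that were called higher and the 12.6% called lower.

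**Figure D4:**
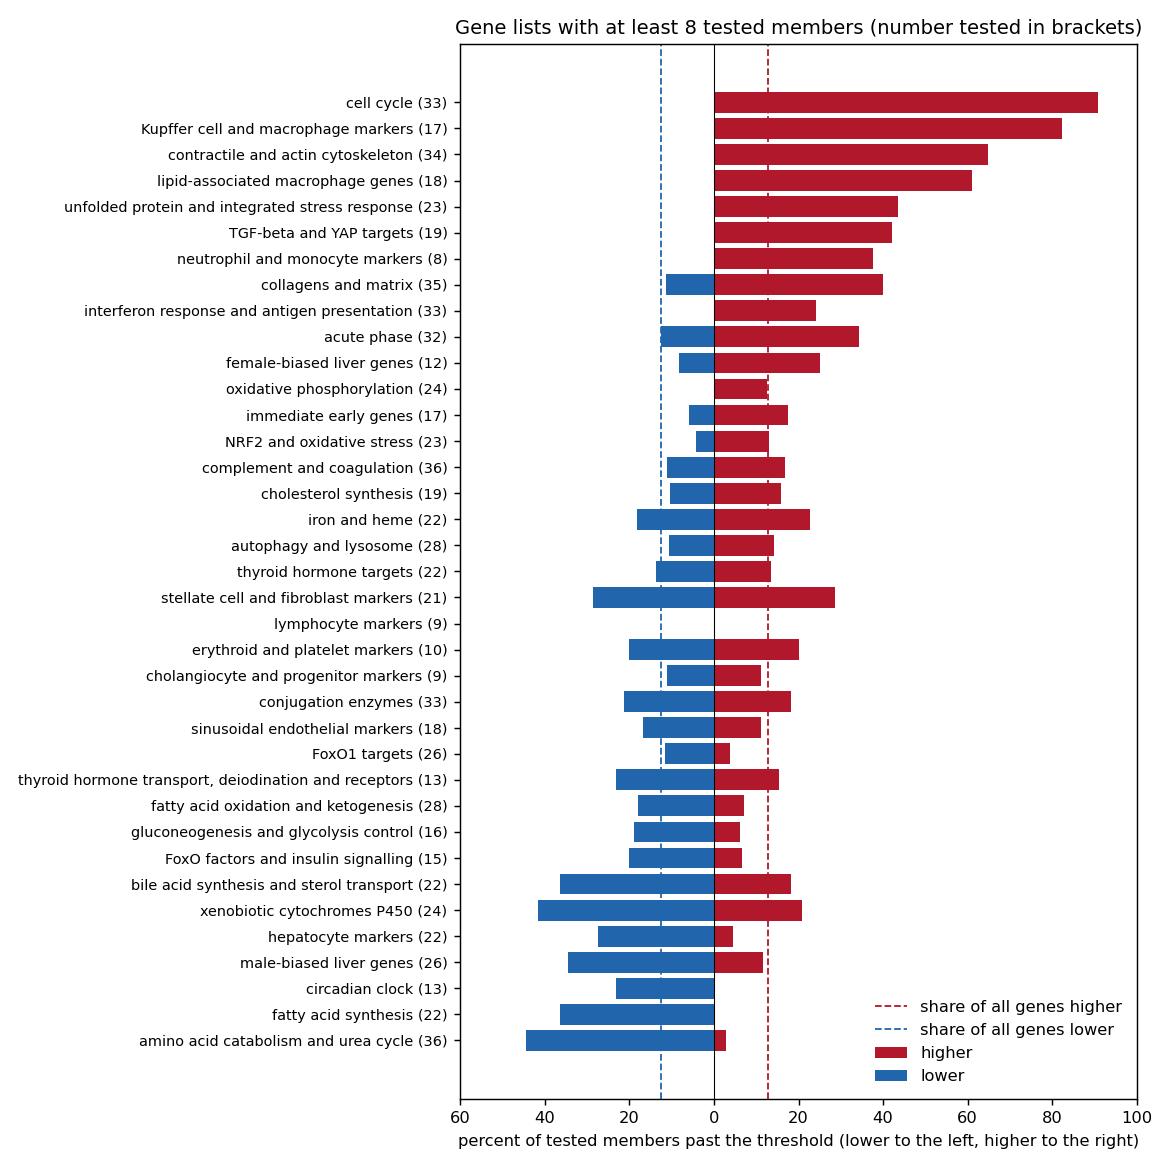
Percent of the tested members of each gene list that were called higher (red, to the right) or lower (blue, to the left) with T3 and FoxO1 siRNA, for lists with at least 8 tested members (number in brackets), with dashed lines at the shares of all genes, 12.9% and 12.6%. The cell cycle bar reaches 90.9% to the right with none to the left, and that of amino acid catabolism and urea cycle reaches 44.4% to the left.

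Genes of DNA replication and mitosis rose almost throughout. Of 33 tested cell cycle genes 30 rose, none fell and 3 did not pass, with a median difference of 1.53. Without 1 array the number that rose was 24 to 32, and the median was 1.24 without siRNA replicate 3. Prc1, a bundler of spindle microtubules, read 7.83, 8.16 and 8.30 in euthyroid liver and 9.96, 10.65 and 10.58 with the siRNA (2.30 ± 0.21, adjusted p = 0.00198). Top2a, the topoisomerase of dividing cells, was detected on 1 of 3 euthyroid arrays and rose from 5.70, 4.93 and 5.40 to 7.39, 8.23 and 8.48 (2.69 ± 0.31, adjusted p = 0.00301). Cdk1, the kinase that starts mitosis, rose from 6.53, 6.51 and 6.63 to 8.25, 8.76 and 9.21 (2.18 ± 0.23, adjusted p = 0.00231).

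The activator of mitotic exit Cdc20 rose by 1.74 ± 0.16 (adjusted p = 0.00203) and the centromeric histone Cenpa by 1.09 ± 0.11 (adjusted p = 0.00214). Members of the replicative helicase rose as well, from 0.98 for Mcm7 to 2.18 for Mcm5. The list's median over its genes, against the euthyroid mean, was 1.09, 1.43 and 2.09 on siRNA replicates 1, 2 and 3, so replicate 3 was the highest array and replicate 1 the lowest. The 3 members that did not pass were E2f1 (1.13), Tk1 (0.28) and the cyclin Ccnd2 (-0.41).

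The promoters of these genes are shown because the rise was shared by most of them. Of the 30 genes that rose 26 have a promoter in the RefSeq table (GRCm38.p6), taken from 250 bases before to 50 after the start. In 11 of the 26 (42.3%) it holds the cell cycle homology region TTTGAA on either strand, against 20.2% of all 27025 genes, and in 18 (69.2%) the CCAAT box, against 41.1%. Among genes that fell, the CCAAT box was found in 8 of 16 of amino acid catabolism and 4 of 5 of fatty acid synthesis. It was found in 2 of 9 acute phase and 4 of 17 contractile genes that rose. Both motifs were found for 11 of the cell cycle genes that rose and for 8.97% of all genes. A gene with several listed promoters may hold them in different ones. A match is a description of letters and not of a bound site. Cell cycle genes that did not pass were not searched, so whether these shares go with the rise or only with being in the list was not tested. The following stretches run 5′ to 3′ from base -110 to base 20 around the start of 5 genes, where base -1 is the last before the start, with both motifs in capitals, which read TTCAAA and ATTGG where the match is on the other strand.
Prc1 (chr7:80294341-80294470, plus strand): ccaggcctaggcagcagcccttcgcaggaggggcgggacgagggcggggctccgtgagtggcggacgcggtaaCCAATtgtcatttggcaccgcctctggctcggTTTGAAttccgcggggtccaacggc
Cdc20 (chr4:118437324-118437453, minus strand): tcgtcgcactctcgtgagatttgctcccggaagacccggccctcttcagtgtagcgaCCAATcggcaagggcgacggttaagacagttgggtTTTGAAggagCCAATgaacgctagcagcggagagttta
Cdk1 (chr10:69352893-69353022, minus strand): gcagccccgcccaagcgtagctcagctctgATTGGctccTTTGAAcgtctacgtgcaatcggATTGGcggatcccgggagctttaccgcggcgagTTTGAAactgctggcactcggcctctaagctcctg
Top2a (chr11:99024170-99024299, minus strand): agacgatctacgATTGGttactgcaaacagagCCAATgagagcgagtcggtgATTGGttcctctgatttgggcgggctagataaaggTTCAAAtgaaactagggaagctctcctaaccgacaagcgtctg
Kif11 (chr19:37376272-37376401, plus strand): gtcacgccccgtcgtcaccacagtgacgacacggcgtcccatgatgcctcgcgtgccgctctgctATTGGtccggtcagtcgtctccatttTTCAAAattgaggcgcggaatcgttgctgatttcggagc

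In each of the printed genes a CCAAT box, on either strand, lies upstream of a TTTGAA or TTCAAA match, and in Cdc20 another lies downstream of it. Top2a has 3 CCAAT boxes in the stretch, and Cdk1 holds TTTGAA at 2 separate places. The first 4 genes rose by 2.30, 1.74, 2.18 and 2.69 in the order printed. Kif11 was not detected in euthyroid liver and was at least 2.54-fold higher (adjusted p = 0.00308). The promoters were chosen after the matches were seen.

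**Figure D5:**
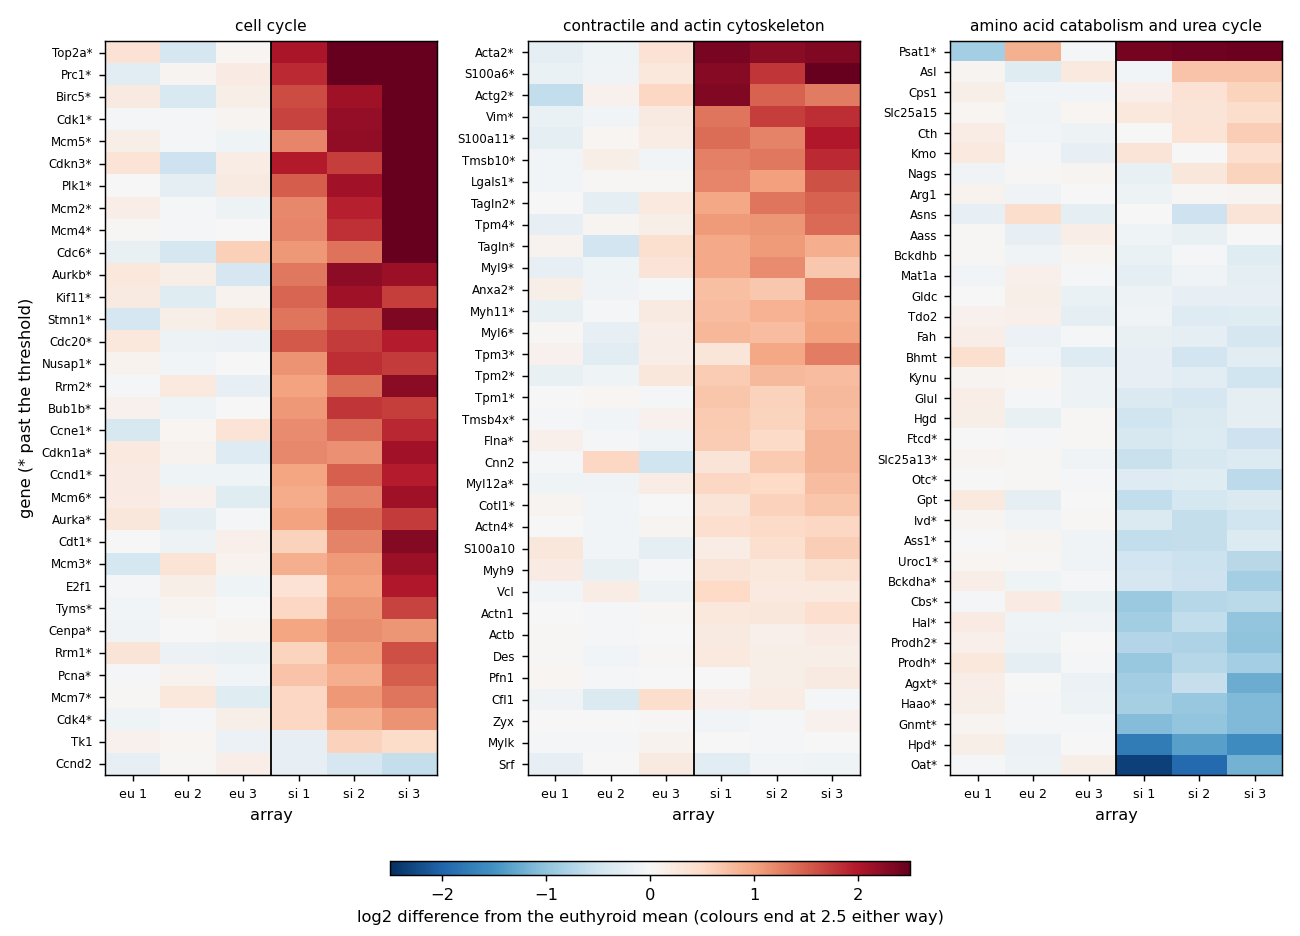
Log2 difference from the euthyroid mean (colour, red higher and blue lower, with colours ending at 2.5 either way) for each tested gene of 3 lists (rows, stars mark called genes) on the 3 euthyroid (eu) and 3 T3 plus FoxO1 siRNA (si) arrays. Cell cycle genes are palest in red on si 1 (list median 1.09) and deepest on si 3 (2.09), most contractile genes are red on all siRNA arrays, and most amino acid genes are blue, with Psat1 the called exception.

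Acute phase genes changed in both directions. Of 32 tested members 11 rose and 4 fell, with a list median of 0.09. Beside Lcn2 and the serum amyloids, Orm2, an acid glycoprotein of plasma, rose from 12.002, 11.70 and 11.79 to 13.22, 13.64 and 13.52 (1.62 ± 0.15, adjusted p = 0.00193). Cd14, a receptor for endotoxin, rose by 1.47 ± 0.18 (adjusted p = 0.00364) and Cp, the copper protein ceruloplasmin, by 0.58 ± 0.11 (adjusted p = 0.0107). Saa4, the constitutive serum amyloid, fell from 13.26, 13.30 and 13.26 to 12.32, 12.51 and 12.26 (-0.91 ± 0.11, adjusted p = 0.0034). Fgb, a chain of fibrinogen, fell by 1.36 ± 0.30 on a dim probe (adjusted p = 0.0187; lost in 4 alternatives), whereas its partner chains Fga (-0.05) and Fgg (0.04) did not pass. The probe of Alb, albumin, a protein that usually falls in the acute phase, read 9.56, 9.64 and 9.60 against 8.39, 8.67 and 8.51 (-1.08 ± 0.11, adjusted p = 0.00235). It was the only tested probe of Alb and read far below Apob, whose euthyroid mean was 13.03. Whether it measures the main albumin transcript was not tested.

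The promoters of 9 of the 11 acute phase genes that rose are in the table. In 6 of the 9 (66.7%) they hold the core TTGCNNAA that binding sites of C/EBP factors share, against 12.2% of all genes. The NF-kB motif searched (GGG, 2 bases of any kind and TTTCC) was found in none of the 9 and in 1.89% of all genes. At so low a share, none in 9 is the usual outcome and says nothing about these genes. Acute phase genes that did not rise were not searched, so whether the C/EBP share goes with the rise was not tested. Stretches of 5 genes with the C/EBP core are printed from base -220 to base -81, with the match in capitals. The match is on the other strand in Saa3, and Saa1, Saa2 and Saa3 lie close together on chromosome 7. The stretches of Saa1 and Saa2 are nearly the same in sequence, so their matches are not independent of each other.
Saa1 (chr7:46743061-46743200, minus strand): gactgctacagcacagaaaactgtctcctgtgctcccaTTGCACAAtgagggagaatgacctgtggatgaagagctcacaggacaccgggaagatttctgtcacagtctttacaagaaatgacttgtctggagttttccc
Saa2 (chr7:46751613-46751752, plus strand): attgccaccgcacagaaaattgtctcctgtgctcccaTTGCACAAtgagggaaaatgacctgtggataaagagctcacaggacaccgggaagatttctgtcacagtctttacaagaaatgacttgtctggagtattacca
Saa3 (chr7:46715757-46715896, minus strand): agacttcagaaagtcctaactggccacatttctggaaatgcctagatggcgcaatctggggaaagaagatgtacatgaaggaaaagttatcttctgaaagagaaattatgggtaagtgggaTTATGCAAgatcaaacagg
Lcn2 (chr2:32387820-32387959, minus strand): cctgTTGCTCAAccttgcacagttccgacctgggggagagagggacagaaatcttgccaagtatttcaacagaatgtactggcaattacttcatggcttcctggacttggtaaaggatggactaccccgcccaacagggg
Orm2 (chr4:63362229-63362368, plus strand): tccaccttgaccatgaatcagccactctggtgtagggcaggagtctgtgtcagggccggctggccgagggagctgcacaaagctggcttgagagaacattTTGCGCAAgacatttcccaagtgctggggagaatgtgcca

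Most macrophage markers were higher in the siRNA group. Of 17 tested Kupffer cell and macrophage markers 14 rose and none fell, with a median of 0.83. The level summed over the list was 26323 to 26979 in euthyroid liver and 39790 to 46058 with the siRNA. The iron exporter Slc40a1 weighs heavily in that sum, with a euthyroid mean of 13.53 against 11.27 for Vsig4 and 9.59 for Adgre1. Lyz2, a lysozyme of myeloid cells, read 9.59, 9.48 and 9.32 against 10.97, 10.55 and 11.29 (1.47 ± 0.19, adjusted p = 0.00403). Adgre1, the F4/80 antigen, rose by 1.03 ± 0.14 (adjusted p = 0.00453) and the complement receptor Vsig4 by 0.88 ± 0.12 (adjusted p = 0.00482). Clec4f, which only Kupffer cells express in mouse liver, did not pass (-0.18), and Cd5l was not detected on enough arrays to be tested. The complement genes C1qa, C1qb and C1qc, made by macrophages, rose by 0.97, 0.91 and 1.12.

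Of 18 genes known from lipid-associated macrophages 11 rose and none fell (median 1.07). Besides Gpnmb they include the tetraspanin Cd63 (9.92, 10.01 and 9.96 against 11.76, 11.48 and 12.01; 1.79 ± 0.15, adjusted p = 0.00193), the protease Lgmn (1.10 ± 0.13, adjusted p = 0.00335), Emp1 (1.90 ± 0.24, adjusted p = 0.00378) and the actin-capping Capg (1.13 ± 0.14, adjusted p = 0.00388). Of 8 neutrophil and monocyte markers 3 rose, namely Lcn2, Plac8 (1.08 ± 0.13, adjusted p = 0.00328) and Chil3 (1.28 ± 0.37, adjusted p = 0.0408; lost in 6 alternatives). The granule genes Ngp, Camp, Ltf, Mpo and Elane and the receptor Cxcr2 were not detected on enough arrays to be tested, and S100a8 (0.69) and S100a9 (0.54) did not pass. None of 9 lymphocyte markers was called, and their summed level was 2829 to 3099 in euthyroid liver and 2845 to 4335 with the siRNA. The brightest of them were Cd8b1 (0.36 ± 0.17, adjusted p = 0.155), Ccl5 (0.29 ± 0.34, adjusted p = 0.552) and Cd79b (-0.35 ± 0.13, adjusted p = 0.0869). The part of these cells in the changes of the other lists was not tested.

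Genes of the contractile and actin cytoskeleton rose together, as 22 of 34 did and none fell (median 0.68; 16 to 22 without 1 array). Acta2, the smooth muscle actin of activated stellate cells, read 9.76, 9.90 and 10.36 in euthyroid liver and 12.37, 12.27 and 12.33 with the siRNA, a 4.98-fold rise (2.32 ± 0.16, adjusted p = 0.00179), and its other 3 probes rose by 1.80 to 2.00. The calcium-binding S100a6 rose by 2.21 ± 0.21 (adjusted p = 0.00203), the intermediate filament gene Vim by 1.64 ± 0.17 (adjusted p = 0.00231), the actin-sequestering Tmsb10 by 1.49 ± 0.18 (adjusted p = 0.0034) and the galectin Lgals1 by 1.28 ± 0.16 (adjusted p = 0.00362). The ubiquitous actin Actb (0.18) and Srf, the factor that drives many of these genes, (-0.16) did not pass.

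Matrix genes rose in larger number than they fell, 14 against 4 of 35 (median 0.46). Col1a1, a chain of type I collagen, read 7.72, 7.68 and 7.87 against 9.49, 9.16 and 9.38, a 3.00-fold rise (1.59 ± 0.12, adjusted p = 0.00179). The crosslinking enzyme Lox rose by 1.93 ± 0.22 (adjusted p = 0.00293), the proteoglycan Lum by 1.16 ± 0.14 (adjusted p = 0.00371) and the protease inhibitor Timp1 by 2.20 ± 0.36 (adjusted p = 0.00801). Tnc, a matrix glycoprotein of repair, rose on 2 probes (1.85 and 2.18) and fell on a dimmer one (-0.49). The gelatinase Mmp2 fell from 8.87, 8.98 and 8.92 to 8.13, 8.02 and 8.05 (-0.86 ± 0.10, adjusted p = 0.00314), and the number of matrix genes that fell was 1 without any single euthyroid array and 2 without siRNA replicate 1 or 2.

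Markers of stellate cells and fibroblasts split, with 6 of 21 higher and 6 lower. Those that rose are the activation genes Acta2, Col1a1, Col1a2, Lum, Timp1 and Tagln, and those that fell include Reln, a glycoprotein of quiescent stellate cells (12.18, 12.03 and 12.05 against 10.92, 11.16 and 10.64; -1.18 ± 0.15, adjusted p = 0.00388). The list's median was -0.21, and 0.01 with median scaling, and the falls numbered 2 without any single euthyroid array and 3 without siRNA replicate 1 or 3. The vitamin A enzyme Lrat (-0.21) and the receptor Pdgfrb (0.18), which define these cells, did not pass. In the list of TGF-beta and YAP targets 8 of 19 rose and none fell (5 without euthyroid replicate 2). Among them were Id1, an inhibitor of DNA binding (0.99 ± 0.15, adjusted p = 0.00576), the receptor kinase Axl (0.77 ± 0.12, adjusted p = 0.00702), the activin antagonist Fst (1.18 ± 0.21, adjusted p = 0.00942) and the repressor Tgif1 (0.58 ± 0.11, adjusted p = 0.0128). Ankrd1, a YAP target, was not detected in euthyroid liver and was at least 1.47-fold higher (adjusted p = 0.00207), whereas the YAP targets Ccn1 (-0.63) and Ccn2 (-0.45) did not pass. Of 18 sinusoidal endothelial markers 2 rose (1 or none without any single array) and 3 fell, and with median scaling 5 were called higher and 2 lower. Ehd3 fell by 0.68 ± 0.13 (adjusted p = 0.0111), while the defining markers Lyve1 (0.34), Stab2 (-0.30) and Pecam1 (-0.21) did not pass, and the list's median of -0.12 became 0.04 with median scaling.

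Chaperones and folding enzymes of the endoplasmic reticulum rose. In the list of 23 stress genes of this compartment and of translation control 10 rose and none fell (median 0.42). The number that rose was 6 without euthyroid replicate 1 or 2 and 5 without siRNA replicate 2 or 3. Dnajb9, a cochaperone, read 10.60, 10.66 and 11.17 against 11.96, 12.04 and 12.07 (1.21 ± 0.17, adjusted p = 0.00453). The lectin chaperone Calr rose by 1.01 ± 0.18 (adjusted p = 0.0101), the disulfide isomerase Pdia3 by 0.74 ± 0.13 (adjusted p = 0.00966) and Hspa5, the main chaperone of the compartment, by 0.67 ± 0.12 (adjusted p = 0.0115). Atf3, a stress-induced repressor, rose by 1.08 ± 0.18 (adjusted p = 0.00767) and was detected on 1 of 3 euthyroid arrays. The integrated stress genes Ddit3 (0.28), Trib3 (-0.75) and Asns (-0.07) did not pass.

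All 10 genes of this list that rose have a promoter in the table. It holds the endoplasmic reticulum stress element (CCAAT, 9 bases of any kind and CCACG) in 5 of them (Hspa5, Calr, Creld2, Pdia6 and Hsp90b1), against 0.137% of all genes, 37 of 27025. The element contains a CCAAT box, so the 2 motifs overlap, and a CCAAT box was found in all 10. The list was made of genes known for this response, and its members that did not pass were not searched. Whether the element goes with the rise or only with being in the list was therefore not tested. The stretches of 3 genes run from base -150 to base -20, with the ends of the element, CCAAT and CCACG or their complements, in capitals.
Hspa5 (chr2:34771940-34772070, plus strand): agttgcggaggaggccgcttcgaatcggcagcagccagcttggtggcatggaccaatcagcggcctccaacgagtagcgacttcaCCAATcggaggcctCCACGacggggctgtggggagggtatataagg
Creld2 (chr15:88819496-88819626, plus strand): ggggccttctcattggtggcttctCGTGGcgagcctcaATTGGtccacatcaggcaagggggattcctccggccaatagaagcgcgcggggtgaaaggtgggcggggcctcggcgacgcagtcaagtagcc
Pdia6 (chr12:17266439-17266569, plus strand): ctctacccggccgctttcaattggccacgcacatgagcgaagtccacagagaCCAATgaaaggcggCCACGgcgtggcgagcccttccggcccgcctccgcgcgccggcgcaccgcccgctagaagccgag

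The other motifs searched on both strands in the same way were the E2F motif TTTCCCGC (3 of the 26 cell cycle genes, 1.24% of all genes), the STAT motif TTCNNNGAA (1 of the 9 acute phase genes, 9.55%), the CArG box of serum response factor (2 of 17 contractile genes, 1.81%) and the FoxO motif GTAAACA (1 of the 26 cell cycle genes, 4.05%). The FoxO motif was found in none of the 16 genes of amino acid catabolism or the 5 of fatty acid synthesis that fell and have a promoter here. With 4.05% of all genes holding it, none among so few is not unusual, so nothing is read from it.

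Of 23 NRF2 and oxidative stress genes 3 rose (5 without siRNA replicate 1 or with median scaling) and 1 fell, Sod1 (-0.35 ± 0.10, adjusted p = 0.0409; lost in 9 alternatives). The carbonyl reductase Cbr3 rose from 7.43, 6.82 and 6.65 to 8.80, 8.67 and 9.58 (2.05 ± 0.29, adjusted p = 0.0049), the sulfiredoxin Srxn1 by 0.79 ± 0.15 (adjusted p = 0.012) and the heme oxygenase Hmox1 by 0.83 ± 0.19 (adjusted p = 0.0221; lost in 2 alternatives). Of 17 immediate early genes 3 rose, Atf3, Klf6 (0.59 ± 0.11, adjusted p = 0.0121) and Jun (0.82 ± 0.25, adjusted p = 0.0469; lost in 8), and Zfp36 fell (-0.55 ± 0.17, adjusted p = 0.0495; lost in 10). With median scaling 6 of the 17 were called higher and none lower. In autophagy and lysosome 4 of 28 rose and 3 fell, with Ctsc, a protease, at 0.97 ± 0.13 (adjusted p = 0.00406) and Atg7, needed for autophagosome formation, at -0.70 ± 0.11 (adjusted p = 0.0067). Interferon and antigen presentation genes rose in 8 of 33 cases with none lower (median 0.23). The guanylate-binding proteins Gbp3 and Gbp2 rose by 1.15 ± 0.12 (adjusted p = 0.00259) and 0.99 ± 0.15 (adjusted p = 0.00551), and the class I antigen H2-D1 by 0.67 ± 0.12 (adjusted p = 0.01).

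Enzymes that break down amino acids were lower. Of 36 genes of amino acid catabolism and the urea cycle 16 fell and 1 rose, with a median of -0.35. Without euthyroid replicate 1, euthyroid replicate 2 or siRNA replicate 2 the number that fell was 9, 10 and 10. Oat, the ornithine aminotransferase, read 14.29, 14.19 and 14.46 in euthyroid liver and 11.97, 12.37 and 13.12 with the siRNA, a 3.54-fold fall (-1.82 ± 0.27, adjusted p = 0.00587). Hpd, the dioxygenase of tyrosine breakdown, fell from 13.57, 13.28 and 13.42 to 11.68, 12.06 and 11.85 (-1.56 ± 0.14, adjusted p = 0.00193). The glycine methyltransferase Gnmt fell by 1.05 ± 0.10 (adjusted p = 0.00203), Haao of the tryptophan pathway by 0.96 ± 0.12 (adjusted p = 0.00396; -0.40 on a probe that did not pass) and the proline dehydrogenase Prodh2 by 0.83 ± 0.12 (adjusted p = 0.00593).

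In the urea cycle itself Ass1 (-0.52) and Otc (-0.43) fell, while Cps1 (0.35), Asl (0.45) and Arg1 (-0.01) did not pass. The member that rose was Psat1, which makes serine rather than degrading an amino acid. It read 5.99, 7.74 and 6.81 in euthyroid liver and 9.25, 9.27 and 9.29 with the siRNA (2.42), so the euthyroid arrays were spread and the siRNA arrays close together.

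Genes of fatty acid synthesis were lower where they were called, 8 of 22 with none higher (median -0.33). The number was 2 without euthyroid replicate 1 or 2, 4 without euthyroid replicate 3, siRNA replicate 2 or siRNA replicate 3, and 5 without a filter on dim probes. Beside Fasn, the citrate carrier Slc25a1 fell from 11.98, 11.996 and 11.97 to 11.11, 11.13 and 11.07 (-0.87 ± 0.10, adjusted p = 0.00266), which is a narrow spread in both groups. Lpin1, a phosphatidate phosphatase, fell by 1.41 ± 0.32 (adjusted p = 0.0202), the acyltransferase Dgat1 by 0.77 ± 0.16 (adjusted p = 0.0166) and the acetyl-CoA synthetase Acss2 by 0.72 ± 0.17 (adjusted p = 0.0234), and these calls were lost without some single arrays in 3, 2 and 4 of the alternatives. Srebf1, the factor that drives the pathway, read 9.68, 9.37 and 10.21 against 8.06, 9.02 and 9.29 and did not pass (-0.96 ± 0.34, adjusted p = 0.0756).

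Of 19 cholesterol synthesis genes 3 rose and 2 fell (median 0.14), against 4 and 1 with median scaling. Sqle, the squalene epoxidase, rose from 10.22, 10.60 and 10.38 to 11.98, 11.96 and 12.06 (1.60 ± 0.13, adjusted p = 0.00179), with 1.93 on its other probe. Cyp51, the lanosterol demethylase, rose by 1.11 ± 0.16 (adjusted p = 0.00529) and the sterol oxidase Msmo1 by 0.80 ± 0.15 (adjusted p = 0.0109), whereas enzymes before and after these steps, Fdps (0.14), Idi1 (-0.02) and Dhcr7 (0.07), did not pass. The falls of Tm7sf2, a sterol reductase, and of the sterol carrier Stard4 were lost in 9 and 7 alternatives, and neither was called without any single euthyroid array or without siRNA replicate 3.

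Bile acid and sterol transport held 4 rises and 8 falls among 22 genes. Slc51b, a subunit of the basolateral bile acid exporter, read 5.44, 5.43 and 5.92 against 7.87, 7.73 and 8.498 (2.44 ± 0.23, adjusted p = 0.00203) and was detected on 1 of 3 euthyroid arrays. The uptake carrier Slc10a1 fell by 0.81 ± 0.11 (adjusted p = 0.00416), the basolateral exporter Abcc3 by 1.06 ± 0.13 (adjusted p = 0.0034) and Hsd3b7, an enzyme of bile acid synthesis, by 0.71 ± 0.12 (adjusted p = 0.00868). The falls numbered 3, 4 and 5 without euthyroid replicates 1, 2 and 3, and the rises 1 without euthyroid replicate 1 or 2 or siRNA replicate 2 or 3, and 2 without euthyroid replicate 3. Among 28 genes that oxidize fatty acids or make ketones 2 rose and 5 fell. The microsomal hydroxylase Cyp4a14 fell from 13.09, 13.78 and 13.36 to 11.79, 11.85 and 11.90 (-1.56 ± 0.18, adjusted p = 0.0029), the thioesterase Acot1 by 1.49 ± 0.23 (adjusted p = 0.00602; -0.95 on a probe that did not pass) and the thiolase Acaa1b by 0.72 ± 0.11 (adjusted p = 0.00626). The 2 probes of Hadh were called in opposite directions (1.18 and -0.60). The count of 5 falls was 3 without euthyroid replicate 2 or siRNA replicate 1 and with median scaling. Oxidative phosphorylation had 3 rises of 24, Cycs, cytochrome c (0.47 ± 0.10, adjusted p = 0.0168), Cox5a (0.39 ± 0.10, adjusted p = 0.026) and Ndufa5 (0.44 ± 0.11, adjusted p = 0.0263), a share of 12.5% against 12.9% of all genes. None of the 3 was called without euthyroid replicate 1, euthyroid replicate 2 or siRNA replicate 2, and 1 was called without euthyroid replicate 3 or siRNA replicate 3.

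Enzymes of drug metabolism fell in larger number than they rose. Of 24 xenobiotic cytochromes P450 and their receptors 10 fell and 5 rose (median -0.36), and 2 rose with median scaling. Cyp1a2, which metabolizes caffeine, read 13.97, 13.92 and 13.91 in euthyroid liver and 12.07, 12.08 and 11.56 with the siRNA (-2.03 ± 0.16, adjusted p = 0.00179). Cyp2c29 fell from 10.97, 10.93 and 10.48 to 7.91, 8.84 and 8.76 (-2.29 ± 0.26, adjusted p = 0.0031). Nr1i3, the constitutive androstane receptor that induces several of these enzymes, fell from 11.54, 11.70 and 11.50 to 10.14, 10.71 and 10.15 (-1.24 ± 0.17, adjusted p = 0.00482), but 2 of its dim probes gave 0.16 and 0.09 and did not pass. Without euthyroid replicate 1 or 2 the falls numbered 4 and the rises 1, without euthyroid replicate 3 or siRNA replicate 3 the falls numbered 6 and the rises 1, and the rises numbered 2 without siRNA replicate 2. Of 33 conjugation enzymes 6 rose (3 without euthyroid replicate 2) and 7 fell (4 without euthyroid replicate 1 or 2). The theta class transferase Gstt1 rose by 1.34 ± 0.12 (adjusted p = 0.00193), the glucosyltransferase Ugt3a1 fell by 1.39 ± 0.14 (adjusted p = 0.00218), Gstm6 fell by 0.94 ± 0.12 (adjusted p = 0.00403) and the acetyltransferase Nat8 fell by 1.51 ± 0.28 (adjusted p = 0.0105).

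Genes that are higher in male than in female mouse liver fell in 9 of 26 cases and rose in 3 (median -0.22). The rises numbered 1 without euthyroid replicate 1 or 2 or siRNA replicate 1 or 3. Beside the Cyp4a12 genes and Elovl3, Cyp2u1 fell from 7.17, 7.43 and 7.15 to 5.78, 5.58 and 5.58 (-1.60 ± 0.12, adjusted p = 0.00179; -0.40 on a probe that did not pass) and the complement regulator Susd4 by 1.55 ± 0.19 (adjusted p = 0.00345). Of 12 female-biased genes 3 rose, Cyp17a1, A1bg (2.01 ± 0.26, adjusted p = 0.004) and Cyp2a4 (1.05 ± 0.25, adjusted p = 0.0237; lost in 4 alternatives), and Hamp2 fell. The median of the female-biased genes against the euthyroid mean was -0.05, 0.42 and 0.73 on siRNA replicates 1, 2 and 3.

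The samples read as liver: of 22 tested hepatocyte markers all but Fgb were detected on every array, and the summed level of the list was 426052 to 431880 in euthyroid liver and 416055 to 421492 with the siRNA. In that list 6 fell and 1, Apob (0.63 ± 0.14, adjusted p = 0.0175), rose (not called without siRNA replicate 3), with a median close to 0, and the falls numbered 3 without euthyroid replicate 1, euthyroid replicate 2 or siRNA replicate 2. Asgr2, a subunit of the asialoglycoprotein receptor, fell from 10.16, 9.99 and 10.02 to 8.89, 9.11 and 8.86 (-1.11 ± 0.12, adjusted p = 0.00243). The hepatocyte factors Hnf4a (0.12) and Cebpa (-0.03) and the plasma proteins Ttr (0.08) and Apoa1 (-0.02) did not pass.

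Complement and coagulation genes changed in 10 of 36 cases, 6 higher and 4 lower. Beside the C1q genes, the protein S gene Pros1 rose by 0.64 ± 0.13 (adjusted p = 0.0131) and Proc, which encodes protein C, fell by 0.63 ± 0.12 (adjusted p = 0.0131). Both of these calls were lost without euthyroid replicate 2, where 3 genes of the list were higher and none lower, and the falls numbered 2, 1 and 2 without euthyroid replicate 1, euthyroid replicate 3 and siRNA replicate 3. Of 22 genes of iron and heme 5 rose (3 without euthyroid replicate 1) and 4 fell. Slc40a1, the iron exporter ferroportin, rose by 0.57 ± 0.11 (adjusted p = 0.0112), and Hamp2, a hepcidin gene, fell as given above. Whether these changes are linked was not tested. Alad, an enzyme of heme synthesis, fell by 0.55 ± 0.10 (adjusted p = 0.00998).

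The remaining lists held few calls. Of 13 circadian clock genes 3 fell and none rose, namely Ciart (-0.53 ± 0.12, adjusted p = 0.0229; lost in 6 alternatives), Per1 (-0.73 ± 0.18, adjusted p = 0.0267; lost in 4) and the repressor Nr1d1 (-0.81 ± 0.24, adjusted p = 0.045; lost in 7), and none was called without euthyroid replicate 2 or 3. Of 10 erythroid and platelet markers Klf1, an erythroid factor, fell by 1.41 ± 0.11 (adjusted p = 0.00179) and Alas2, the erythroid enzyme of heme synthesis, by 1.33 ± 0.12 (adjusted p = 0.00193). The platelet chemokine Pf4 rose by 1.09 ± 0.19 (adjusted p = 0.00998) and the transferrin receptor Tfrc by 0.83 ± 0.22 (adjusted p = 0.0322; lost in 5). The summed level of that list was 44305 to 56365 in euthyroid liver and 50565 to 60889 with the siRNA.

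Of 9 cholangiocyte and progenitor markers the cadherin Cdh1 rose (0.68 ± 0.14, adjusted p = 0.0159; lost in 3 alternatives) and the keratin Krt23 fell (-0.98 ± 0.25, adjusted p = 0.0303; lost in 6), with summed levels of 10641 to 13783 and 13218 to 16728. With median scaling 2 of these 9 were called higher and none lower. Of 5 adipocyte and mesothelial markers Car3, a carbonic anhydrase, fell (-0.99 ± 0.21, adjusted p = 0.016), a call lost without euthyroid replicate 1. The summed level was 7292 to 8619 against 3184 to 5246. Car3 carries most of that sum, with a euthyroid mean of 12.88 against 6.69 for Upk3b and 5.83 for Cidec. The adipocyte genes Adipoq, Fabp4 and Plin1 were not detected on enough arrays to be tested. None of 3 exocrine pancreas markers was called, with Cela2a at 0.77 (adjusted p = 0.0556), and Cela2a was called in 11 of the 19 alternatives.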

How the data were processed

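Liver RNA was hybridized to Illumina mouse bead arrays after labelling as biotinylated cRNA, per the labels' protocols. The authors deposited each array's linear bead intensity and detection p-value per probe, not normalized per the file headers. They also deposited normalized intensity values, which sorted differ by at most 0.0693% from the sorted mean of the 9 arrays' signals, with all 9 columns closest to their own array. Partek 6.6 is named in the submitters' processing notes. The scale of the deposited values is linear, and log2 was taken here.

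The intensities of the 6 arrays were background-corrected from the negative controls that their detection p-values imply (936 controls, offset of 16), quantile normalized and log2 transformed with neqc (limma 3.58.1, R 4.3.3). Probes detected (p under 0.05) on 3 or more of the 6 arrays were tested with lmFit and eBayes between the 2 groups, with Benjamini-Hochberg adjustment and a threshold of 0.05. The procedure was tested on simulated data. Genes came from the platform annotation, updated by Entrez identifier: 34885 probes have 1 gene symbol, 18 several and 10378 none, and 2631 tested probes without a single gene were only counted (302 higher, 401 lower). Of a gene's tested probes the brightest on average was used, and 3603 genes had several. For a probe not detected in a group, "at least" folds are set against the lowest signal among detected probes or the probe's own level, whichever is higher on each array, and the measured means are the basis of the printed differences.

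The members and the 39 gene lists (959 symbols, 873 on the array, 733 tested, 11 of the lists being cell type markers) were chosen with earlier results of these data known. Genes were named by rule: Foxo1, Foxo3 and Foxo4, the 12 largest called rises and falls with groups that do not overlap (predicted genes passed over), up to 5 members per list with the lowest adjusted p or up to 3 of the brightest where fewer than 2 passed, and 19 genes of thyroid hormone, FoxO and lipid biology. Other list members given with a difference alone, and those in the closing observations, were chosen after their values were seen. Arrays were not paired by replicate number in the main fit, since the labels do not say that the number pairs them. Promoters come from RefSeq (GRCm38.p6, 32851 entries for 27025 genes). A gene was counted for a motif if any of its entries held it. The printed stretches are from the first listed start of each gene. The alternatives covered background correction, normalization, the filter on dim probes, the arrays in the fit, the spread model, the replicate block, the choice of probe and leaving out each array.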

Additional observations from a re-analysis of the deposited data

How the results depend on the processing

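The count of 4572 called probes ranged from 2151 to 4646 when 1 array was left out, with 1140 to 2321 higher and 1011 to 2325 lower, the lowest without euthyroid replicate 2. The arm with fewer arrays is then taken to vary like the other. Requiring a change of at least 1.5-fold left 2998. Median scaling gave 1218 lower calls in place of 2278. Over all other settings of normalization, background, filter and model the count lay between 3272 (no filter) and 5515 (intensity trend and robust priors). For the brighter Foxo1 probe (-0.30) the range without 1 array was -0.33 to -0.25, never called, and the mean of both Foxo1 probes gave -0.50 (adjusted p = 0.0154), past the threshold. The dimmer Foxo1 probe had -0.48 with median scaling (adjusted p = 0.0576) and -0.84 to -0.60 without 1 array, where -0.69, -0.67 and -0.66 were no longer called. The cause of these shifts was not tested. Of 159 called genes named by the rule besides Foxo1, 114 were called in all alternatives that tested them, 17 were lost in 1 to 3 and 28 in 4 or more. Of 20 not called, 9 were called in at least 1 alternative. Without background correction the FoxO1 targets held 2 rises and 6 falls and fatty acid synthesis 1 rise and 12 falls, whereas median scaling gave the FoxO1 targets 4 rises and 2 falls. With the replicate number as a block 3699 probes were called (1919 higher, 1780 lower), and Foxo1 had an adjusted p of 0.112 on the brighter probe (-0.30) and 0.0393 on the dimmer. Same-numbered arrays had deviations that correlated with r of -0.0391, -0.0167 and 0.047. The labels do not say whether arrays of the same number belong together, and these correlations cannot settle it. A block on the slide was not run, since the column headers give no slide. How far the signal stands above background limits what dim probes can show. Dropping the filter tested 45281 probes and called 3272. The brighter Foxo1 probe then kept its difference of -0.30, with an adjusted p of 0.125 from limma's test. Why fewer probes were called without the filter was not tested.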

Other observations

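Outside the lists, Mcm10, which helps start DNA replication, went the other way from the helicase genes Mcm2 to Mcm7. Its brighter probe read 13.19, 13.26 and 13.18 in euthyroid liver and 11.52, 11.59 and 11.25 with T3 and the siRNA, a 3.37-fold fall (-1.75 ± 0.12, adjusted p = 0.00179), and its second probe fell by 1.46 ± 0.15 (adjusted p = 0.00241). The groups did not overlap on the brighter probe. Whether the Mcm10 probes match other transcripts was not tested. Further genes tied to division rose, among them Uhrf1, which maintains DNA methylation at replication, from 6.99, 7.17 and 7.21 to 8.98, 9.63 and 11.04 (2.76 ± 0.46, adjusted p = 0.00818), and the septum protein gene Anln by 2.18 ± 0.19 (adjusted p = 0.00193).

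Several liver enzymes outside the lists fell with a narrow spread in both groups. Hsd17b6, a steroid dehydrogenase, read 10.23, 10.37 and 10.18 against 8.18, 8.38 and 8.21 (-2.01 ± 0.11, adjusted p = 0.000889). Etnppl, a phospholyase of phosphoethanolamine, fell by 2.00 ± 0.19 (adjusted p = 0.00203) and by 1.90 on its second probe. Cyp2c23, an epoxygenase, fell by 1.87 ± 0.12 (adjusted p = 0.00146), and Tlr5, the flagellin receptor, by 1.95 ± 0.15 (adjusted p = 0.00179). Fgf21, a fasting hormone of the liver, varied more within each group than between them, at 6.27, 10.86 and 9.60 in euthyroid liver and 12.01, 10.98 and 8.56 with the siRNA, and did not pass (1.60 ± 1.26, adjusted p = 0.374).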
